A study of Homo sapiens with 6 samples.

Results

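The 42 genes described here encode proteins that bring a cell into mitosis, build the spindle, check chromosome attachment and divide the cell. They were taken from the TPM table by a list of gene symbols, and the rule uses no measured value. All 42 were found among its 25528 gene symbols, and all 42 passed the expression minimum that left 11595 genes for testing. RNA-seq was run on DU-145/tet-XISTshRNA cells, a castration-resistant prostate cancer line transduced with a doxycycline (DOX)-inducible shRNA against the long noncoding RNA XIST. All 6 samples carry the shRNA vector. The 3 vehicle samples received 0.1% DMSO and the 3 DOX samples received 500 ng/ml DOX, in both cases for 7 days by the study's text. Samples with DOX and without the XIST shRNA were not analysed here, so an effect of DOX and one of silencing cannot be told apart. The question was whether cells depleted of XIST differ in their transcript program, here in the program of mitosis.

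Mitotic genes are transcribed in a wave. In early phases of the cycle the DREAM complex holds many of them silent, and in G2 the factor B-MYB (MYBL2) joined to the MuvB core, followed by FOXM1, drives their transcription. The complexes read a short promoter element, the cell cycle genes homology region (CHR), and NF-Y binds CCAAT boxes close by. Cyclin B with CDK1 then starts mitosis, Aurora and Polo kinases organise the spindle, and the anaphase-promoting complex (APC/C) with CDC20 ends it. DU-145 cells lack functional RB1, which restrains this program in other cells. In bulk RNA, fewer cells in G2 or mitosis and less RNA of these genes per cell cannot be told apart.

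The promoter letters show this shared element. RefSeq promoter windows (GRCh38.p14, 250 bases before to 50 after a start) were found for 35 of the 42 members. The CHR, read here as TTTGAA or TTCGAA on either strand, was present in a window of 27 of the 35 (77.1%), against 16.4% of 35116 windows of all genes. Counted by symbol, 19.5% of all symbols had it. A CCAAT box, on either strand, was present in 28 members (80%), in 34.6% of all windows and for 39.7% of all symbols. Both elements were present in 23 members (65.7%), in 6.38% of all windows and for 7.85% of all symbols. The member shares are counted by gene, so the shares by symbol are the like measure. Members could have several windows, and 30 of them had 1.

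In 8 members with 1 window, the 130 bases before the start hold no exon annotated in GENCODE 44. Of these 8, 5 are printed, the 2 with the highest log2 fold change among these 8 (CDC20 and KIF20A), the 2 with the lowest (KIF11 and KIF14) and the gene of the proliferation marker Ki-67 (MKI67). Both elements lie inside the stretch for CDC20, MKI67 and KIF11, and CCAAT boxes alone for KIF20A and KIF14. Capitals mark each CHR and CCAAT match that lies wholly inside the stretch, in either orientation (TTCAAA and ATTGG are the reverse forms). The stretches lie at chr1:43358851-43358980 on the plus strand (CDC20), chr5:138178982-138179111 on the plus strand (KIF20A), chr10:128126424-128126553 on the minus strand (MKI67), chr10:92593000-92593129 on the plus strand (KIF11) and chr1:200620752-200620881 on the minus strand (KIF14).
CDC20: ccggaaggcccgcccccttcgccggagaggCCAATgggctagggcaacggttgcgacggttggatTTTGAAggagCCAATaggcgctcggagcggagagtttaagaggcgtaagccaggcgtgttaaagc
KIF20A: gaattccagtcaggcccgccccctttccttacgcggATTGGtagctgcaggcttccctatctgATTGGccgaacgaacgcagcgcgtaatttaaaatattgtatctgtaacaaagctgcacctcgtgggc
MKI67: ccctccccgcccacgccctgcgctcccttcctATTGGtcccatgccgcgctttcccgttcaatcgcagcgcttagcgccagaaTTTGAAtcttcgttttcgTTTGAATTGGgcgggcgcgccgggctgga
KIF11: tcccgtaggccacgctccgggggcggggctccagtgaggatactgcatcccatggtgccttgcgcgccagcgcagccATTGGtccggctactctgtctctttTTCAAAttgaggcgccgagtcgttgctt
KIF14: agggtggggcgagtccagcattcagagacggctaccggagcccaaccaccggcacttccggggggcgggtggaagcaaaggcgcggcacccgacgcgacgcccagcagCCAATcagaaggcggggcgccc
The CHR of KIF11 began 28 bases before the start and that of CDC20 65 bases before it, with a second CDC20 match 178 bases before it, outside the stretch. In MKI67 one of the 2 CHR matches runs into a CCAAT box and shares bases with it. KIF14 had its CHR match at the start itself (position 1), outside the stretch, and KIF20A had none in its window. The KIF20A and KIF11 stretches fall inside the annotated gene in intronic sequence, and the other 3 lie upstream of the gene. A match is a description of letters and was not tested as a binding site.

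Values are given as scaled TPM. TPM (transcripts per 1000000, per gene length) was divided by a size factor per sample, because small RNAs such as 7SL took 67.5% to 82.6% of the TPM and shifted all other genes with them. Over all genes the log2 fold change had a median of -0.35 on TPM as deposited and of 0.02 on scaled TPM. The reads recovered on genes ranged from 5453163 in vehicle replicate 3 to 64570704 in DOX replicate 1, and the members had 73 (CDC25C) to 73827 (MKI67) reads in a sample. XIST was listed at 0 TPM in all 6 samples, and so was EIF4A1, a translation factor that cells in general use, so silencing cannot be checked in these values. The epithelial markers KRT8, KRT18, KRT7, EPCAM and CDH1 were detected in every sample, KLK3, COL1A2 and DCN were at 0 throughout, and KLK2, PTPRC and PECAM1 did not exceed 0.0531 TPM. COL1A1, a fibroblast marker, lay between 0.269 and 0.616 TPM.

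In vehicle-treated cells the most abundant members per length were NUSAP1, a microtubule-binding spindle protein, at 105.7 ± 11.4 scaled TPM (SD, n = 3), and TOP2A, the topoisomerase that untangles sister chromatids, at 97.7 ± 8.60. The lowest was CDC25C, a phosphatase that activates CDK1, at 3.70 ± 0.212. The summed level of the 42 members was 1384 ± 64.7 with vehicle and 1431 ± 267 with DOX (SD, n = 3 each). The groups overlapped, since the sum was 1310, 1408 and 1433 in the vehicle samples, taken by replicate number, and 1229, 1734 and 1330 in the DOX samples.

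In the fit of scaled TPM without a replicate block no member passed the adjusted threshold, and in the voom fit of recovered reads with that block CDC20, AURKB and MYBL2 were called higher. By limma with Benjamini-Hochberg adjustment, 0 of 42 members were called at an adjusted p under 0.05 and a fold change over 1.5, as were 0 of all 11595 genes (0%). The lowest adjusted p of a member was 0.268 (BIRC5). At an unadjusted p under 0.05, 9 members were higher and 1 (ECT2) was lower, against 941 and 899 of all genes. With the fold change as well, 2 members were higher (CDC20 and MYBL2) and 0 lower, which is 4.76% and 0% of the members against a background of 1.18% higher and 1.15% lower. The median log2 fold change of the members was 0.08, between -0.53 (KIF14) and 0.60 (MYBL2), and 24 of 42 (57.1%) were above 0, as were 52.9% of all genes. All DOX samples lay above all vehicle samples for 13 of the 42 members, where 10.9% of all genes did so, and below them for 0 members, where 9.15% of all genes did so.

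**Figure D1:**
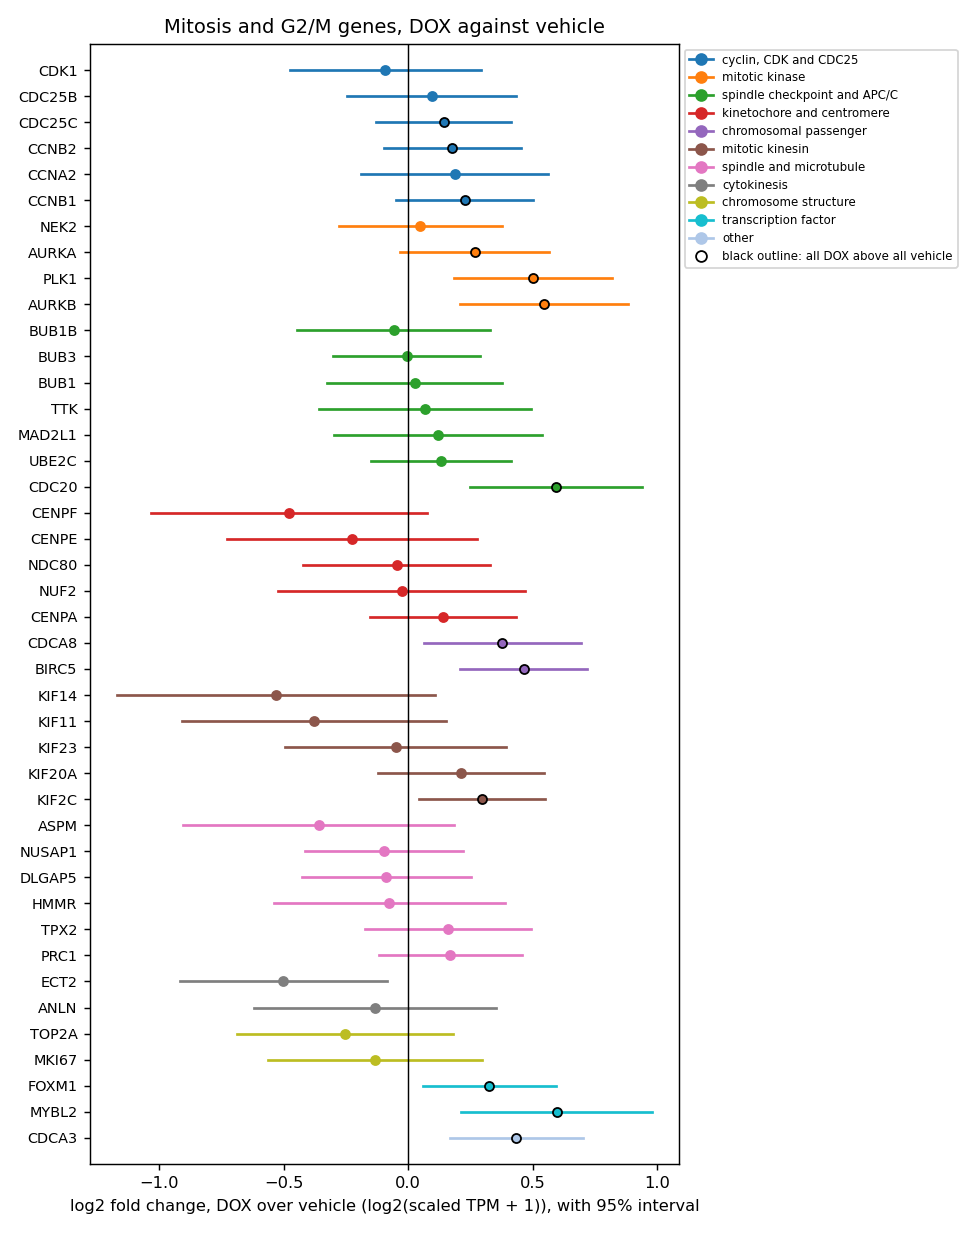
Log2 fold change of each of the 42 members, DOX over vehicle, on log2(scaled TPM + 1), with its 95% interval from limma (3 samples a group) and coloured by role. A black outline marks the 13 members whose DOX samples all lie above all vehicle samples, and the values run from -0.53 (KIF14) to 0.60 (MYBL2).

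The cyclins and CDK1 controls start mitosis. CCNB1, the B-type cyclin that activates CDK1, had 77.1, 75.7 and 84.7 scaled TPM in replicates 1, 2 and 3 of the vehicle group and 88.6, 103.2 and 87.4 in those of the DOX group, the order used throughout. Its DOX samples lay above the vehicle samples by a small margin, with a log2 fold change of 0.23 (95% interval -0.05 to 0.50). CCNB2, its close relative, had 39.0, 43.3 and 42.3 with vehicle and 45.3, 52.7 and 43.6 with DOX. CDC25C had 3.55, 3.60 and 3.94 with vehicle and 4.18, 4.42 and 3.95 with DOX. For both genes the groups did not overlap, but the closest samples of the groups were near each other, and the log2 fold changes of 0.18 and 0.14 had intervals that include 0. CDK1 itself (-0.09), CCNA2, the cyclin of S and G2 phase (0.19), and CDC25B, a second CDK-activating phosphatase (0.09), overlapped between groups. Over the 6 genes of this role the median log2 fold change was 0.16.

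The mitotic kinases had a median log2 fold change of 0.38, and all 4 were above 0. AURKB, the kinase of the chromosomal passenger complex that corrects wrong attachments, had 15.5, 11.7 and 12.8 scaled TPM with vehicle and 19.7, 23.1 and 17.0 with DOX. PLK1, the Polo kinase of centrosome maturation and mitotic entry, had 23.4, 20.6 and 18.02 with vehicle and 29.3, 33.6 and 26.1 with DOX. In both, every DOX sample was above every vehicle sample, and the log2 fold changes were 0.55 (95% interval 0.21 to 0.88) for AURKB and 0.50 (0.18 to 0.82) for PLK1, with an adjusted p of 0.280 each from limma. AURKA, the spindle pole kinase, had 33.0, 32.6 and 29.4 with vehicle and 36.2, 44.8 and 34.6 with DOX. It did not overlap either, with DOX replicate 2 highest, and its log2 fold change was 0.27 (-0.03 to 0.57). NEK2, which separates the centrosomes, was nearly level at 0.05.

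AURKB works with the passengers survivin (BIRC5) and borealin (CDCA8). BIRC5 had 20.4, 18.2 and 18.6 scaled TPM with vehicle and 26.4, 27.7 and 26.1 with DOX. The 3 DOX samples lay close together, and its log2 fold change was 0.46 (95% interval 0.21 to 0.72). CDCA8 had 11.4, 12.04 and 8.97 with vehicle and 13.9, 15.8 and 13.2 with DOX, with a log2 fold change of 0.38 (0.06 to 0.69). CDCA3, which triggers degradation of the WEE1 kinase and is the only member outside the other roles, had 7.86, 7.63 and 6.67 with vehicle and 10.4, 10.5 and 10.1 with DOX. All 3 DOX samples lay above the vehicle samples by more than the spread within either group, with a log2 fold change of 0.43 (0.17 to 0.70) and an adjusted p of 0.280 from limma.

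CDC20, the activator through which the APC/C destroys cyclin B and securin, stood apart from the checkpoint genes on scaled TPM. This was less so after the correction for GC content and length given below. CDC20 had 28.9, 22.9 and 24.6 scaled TPM with vehicle and 40.9, 44.9 and 31.8 with DOX. No DOX sample was as low as the highest vehicle sample, and the log2 fold change was 0.60 (95% interval 0.25 to 0.94, adjusted p of 0.280 from limma). The other 6 genes of this role overlapped between the groups and had log2 fold changes between -0.06 (BUB1B) and 0.13 (UBE2C). BUB3, which brings the BUB kinases to kinetochores, was the most abundant of them, with 50.2, 58.1 and 60.1 with vehicle and 49.4, 61.0 and 57.5 with DOX. UBE2C, the ubiquitin-conjugating enzyme of the APC/C, had 43.0, 38.04 and 43.2 with vehicle and 42.7, 51.2 and 42.9 with DOX. BUB1 (0.03), TTK, the MPS1 kinase of the checkpoint (0.07), and MAD2L1, the MAD2 inhibitor of CDC20 (0.12), were likewise within the spread of the samples.

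The transcription factors of the program were among the higher members. MYBL2, the B-MYB subunit, had 18.1, 12.2 and 11.98 scaled TPM with vehicle and 23.1, 23.1 and 18.5 with DOX. The highest vehicle sample came close to the lowest DOX sample, and the log2 fold change was 0.60 (95% interval 0.21 to 0.98, adjusted p of 0.280 from limma). FOXM1 had 26.0, 23.8 and 27.3 with vehicle and 33.8, 33.7 and 29.98 with DOX, with a log2 fold change of 0.33 (0.06 to 0.59). The adjusted p of FOXM1 was 0.281 from limma.

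Kinetochore genes had a median log2 fold change of -0.05, and 1 of 5 was above 0. NDC80, which with NUF2 forms the rod that grips microtubules, had 36.7, 41.7 and 41.9 scaled TPM with vehicle and 31.7, 50.5 and 36.3 with DOX. CENPF, a large kinetochore and nuclear matrix protein, had 23.7, 25.02 and 24.9 with vehicle and 13.2, 28.8 and 13.6 with DOX. For both genes DOX replicate 2 was the highest sample and the other DOX replicates were the lowest ones. CENPF had a log2 fold change of -0.48 with a wide interval (-1.03 to 0.08), and NDC80 one of -0.05. CENPE, a kinesin of the kinetochore, was at -0.23, NUF2 at -0.03 and CENPA, the histone H3 variant that marks centromeres, at 0.14.

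The mitotic kinesins split. KIF2C, which depolymerises microtubules at centromeres, had 7.69, 7.64 and 7.70 scaled TPM with vehicle and 9.72, 9.97 and 9.29 with DOX, a difference larger than the spread in either group (log2 fold change 0.30, 95% interval 0.04 to 0.55). KIF20A, a kinesin of the central spindle, had 36.0, 40.5 and 51.5 with vehicle and 45.0, 52.9 and 49.6 with DOX, and its groups overlapped (0.21). KIF23, the motor of centralspindlin, had 33.6, 34.9 and 33.1 with vehicle and 25.8, 47.2 and 28.7 with DOX. The DOX samples thus lay on both sides of the vehicle samples, and the log2 fold change was -0.05. KIF14, a kinesin of cytokinesis chosen here after its values were seen, had 11.8, 13.8 and 12.6 with vehicle and 5.55, 15.6 and 6.83 with DOX. It had the lowest log2 fold change of the members, -0.53 (-1.17 to 0.11), while DOX replicate 2 was above every vehicle sample. KIF11, the motor that pushes spindle poles apart, had a log2 fold change of -0.38 (-0.91 to 0.15).

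Spindle proteins had a median of -0.08. NUSAP1 had 93.2, 108.5 and 115.4 scaled TPM with vehicle and 84.4, 107.4 and 104.9 with DOX. TPX2, which activates AURKA on the spindle, had 50.3, 56.5 and 56.3 with vehicle and 51.6, 74.4 and 58.5 with DOX. Neither separated the groups, with log2 fold changes of -0.10 and 0.16. ASPM, a spindle pole protein, was at -0.36, HMMR and DLGAP5, which stabilise spindle microtubules, were at -0.07 and -0.09, and PRC1, which bundles the central spindle, was at 0.17.

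The cytokinesis and chromosome structure genes were all below 0 in the mean. ECT2, the exchange factor that activates RhoA at the cleavage site, had 56.4, 67.9 and 63.6 scaled TPM with vehicle and 33.9, 58.8 and 42.1 with DOX. DOX replicate 2 fell among the vehicle samples, and the log2 fold change was -0.50 (95% interval -0.92 to -0.09, adjusted p of 0.281 from limma). ANLN, the scaffold of the contractile ring, had 67.3, 77.2 and 78.6 with vehicle and 50.8, 99.9 and 60.7 with DOX. TOP2A had 92.1, 107.6 and 93.4 with vehicle and 63.3, 112.9 and 75.8 with DOX. MKI67, the gene of Ki-67, had 72.7, 69.0 and 84.8 with vehicle and 59.0, 95.04 and 57.2 with DOX. In ANLN, TOP2A and MKI67 the DOX samples enclosed the vehicle samples, with log2 fold changes of -0.13, -0.25 and -0.13.

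**Figure D2:**
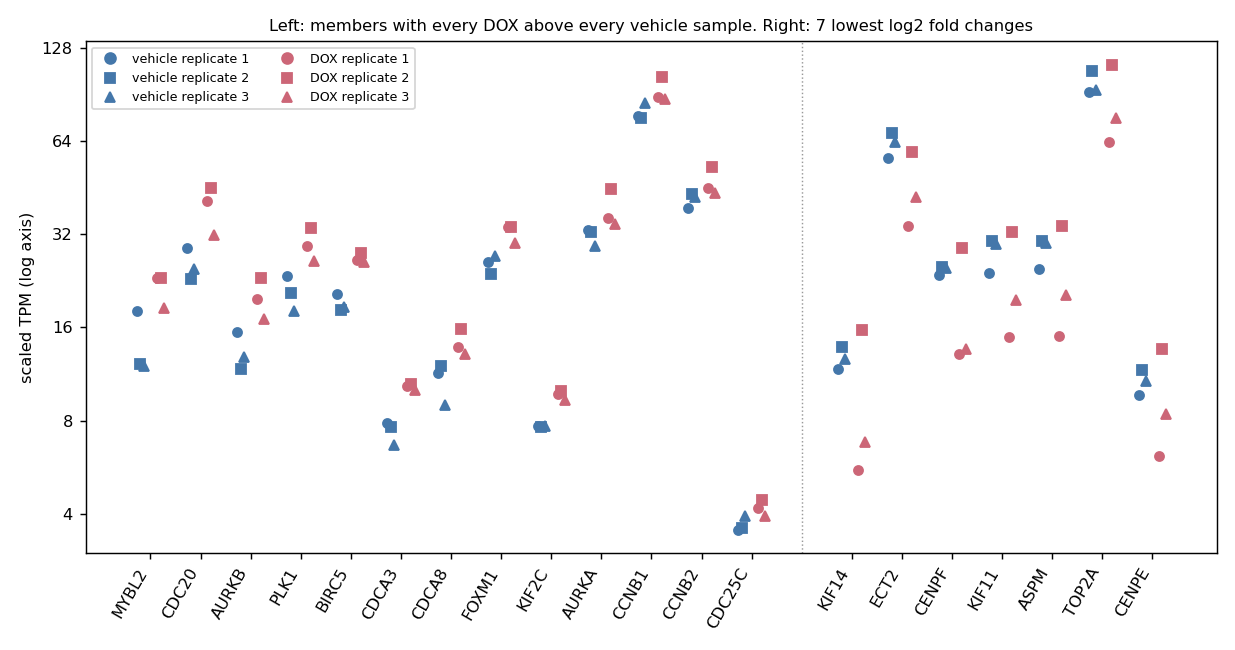
Scaled TPM on a log axis in each of the 6 samples for the 13 members with every DOX sample above every vehicle sample (left) and the 7 members with the lowest log2 fold changes (right), with colour for the group and the marker for the replicate number. On the right, DOX replicate 2 (red squares) sits above every vehicle sample in all members but ECT2, as for KIF14 at 15.6, while DOX replicates 1 and 3 sit below them.

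DOX replicate 2 differed from the other DOX samples across the whole group. It held the highest value of the 6 samples for 38 of the 42 members, the exceptions being CDC25B, NUSAP1, ECT2 and FOXM1, whereas it was highest for 16.1% of all genes. DOX replicate 1 was the lowest sample for 20 members, and for 32.2% of all genes. Against the vehicle mean, the median member deviated by -0.16, 0.34 and 0.04 on the log2 scale in DOX replicates 1, 2 and 3, and the median of all genes by 0.01, 0.02 and 0.03. The range between DOX samples was wider than that between vehicle samples for 34 of 42 members (a median of 0.53 against 0.22 on the log2 scale), and for 67.0% of all genes. Across the 6 samples the members correlated with each other, with a median r of 0.52 over 861 pairs that share the same 6 libraries, where all pairs of genes tested had a median of 0.001. Of the pairs of members 51.2% had r above 0.5, against 24.5% of all pairs.

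Differences between same-numbered samples gave the same picture, but they use the same 6 libraries and are no separate check. The median member was 0.34 higher in DOX than in vehicle replicate 2 on the log2 scale, with 39 of 42 higher. The medians for numbers 1 and 3 were -0.02 and -0.05, with 19 and 18 of 42 higher. The median of all genes lay between 0.01 and 0.02 for the 3 numbers. No sample label explains what sets DOX replicate 2 apart, and its cause was not tested.

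**Figure D3:**
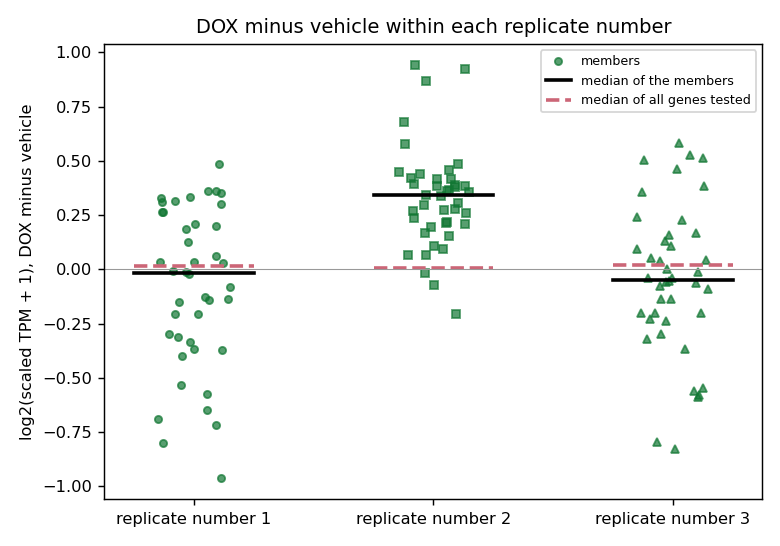
Difference in log2(scaled TPM + 1), DOX minus vehicle, for each of the 42 members (points) within replicate numbers 1, 2 and 3. The black bar is the median of the members (-0.02, 0.34 and -0.05) and the dashed bar that of all genes tested.

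Without DOX replicate 2, more members were lower. Then 5 members were lower at an unadjusted p under 0.05 and a fold change over 1.5 (KIF11, KIF14, CENPF, ASPM and ECT2), 11.9% of the members against a background of 3.55%, and 0 were higher. With this sample left out, the DOX samples lay wholly above the vehicle samples for 14 members and wholly below for 14, where 20.5% and 21.6% of all genes did so. The 14 below included CENPE, CENPF, NDC80, KIF11, KIF14, KIF23, ASPM, ANLN, ECT2, TOP2A and MKI67. The median of the members was -0.05 in that fit, and 0 were called after adjustment, with a lowest adjusted p of 0.0611 from limma. Without vehicle replicate 1 or DOX replicate 3, CDC20, AURKB, PLK1 and MYBL2 passed these limits as higher, 9.52% of the members against backgrounds of 3.47% and 2.45%. Without vehicle replicate 2, vehicle replicate 3 or DOX replicate 1 no member did (0 in each). In these 3 fits few genes did at all, with 99, 92 and 80 of 11595 genes higher.

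The scale and the replicate number changed the calls. On TPM as deposited, 7 members were lower at an unadjusted p under 0.05 and a fold change over 1.5 (TOP2A, KIF11, KIF14, CENPE, CENPF, ASPM and ECT2). That is 16.7% of the members, against a background of 19.0% of all genes on that scale. There, no member had all DOX samples above all vehicle samples (0 members), and 2 (CDC25B and ECT2) had them below, where 30.7% of all genes did. The share of all genes wholly above was not counted. On that scale only 6.90% of all genes, and 6 members (14.3%), had a log2 fold change above 0. The same 7 were called lower after adjustment when the replicate number was added as a block to that scale, again against 19.0% of all genes. In a voom fit of recovered reads that held the block, 3 members were called higher (CDC20, AURKB and MYBL2, with adjusted p of 0.0155, 0.0274 and 0.0158) and 0 lower. These are 7.14% and 0% of the members, against a background of 1.47% higher and 2.15% lower. An adjusted p under 0.05 without the fold change was reached in that fit by 9 members (21.4%), and by 1573 of all 11553 genes (13.6%). These were CDC20, AURKB, PLK1, BIRC5, CDCA8, CDCA3, FOXM1 and MYBL2 as higher and ECT2 as lower (log2 fold change -0.51). Without the block, voom called 0 members, with 9 higher and 1 lower at an unadjusted p under 0.05 (21.4% and 2.38%), against 7.75% and 9.67% of all genes.

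The GC content of the transcript moved with the comparison in the members and in all genes. Over the 42 members the log2 fold change rose with GC content (r = 0.78, n = 42 genes measured in the same 6 libraries) and fell with log2 transcript length (r = -0.64). Over 10788 genes with an annotated transcript these were 0.66 and -0.39. The 6 members of highest GC content were MYBL2 (60.04%), CDC25B (59.1%), PLK1 (57.1%), CDC20 (56.9%), FOXM1 (55.7%) and AURKB (55.7%), and all but CDC25B were in the group without overlap. KIF14 (38.3%), ECT2 (36.3%), CENPF (40.8%), KIF11 (39.3%) and ASPM (37.1%) were all poor in GC, and ASPM and CENPF have transcripts of 10863 and 10290 bases. In all genes, the median log2 fold change went from -0.22 in the fifth of lowest GC content to 0.24 in the fifth of highest.

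The 21 members of lower GC content (35.1% to 42.1%) had a median log2 fold change of -0.07, with 6 above 0, and the 21 of higher GC content (42.1% to 60.04%) one of 0.21, with 18 above 0. By sample, the medians of the genes of lower GC content against the vehicle mean were -0.39, 0.33 and -0.14 in DOX replicates 1, 2 and 3, and those of the genes of higher GC content 0.19, 0.37 and 0.12. The 2 sets therefore lay apart in DOX replicates 1 and 3 and close together in DOX replicate 2.

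**Figure D4:**
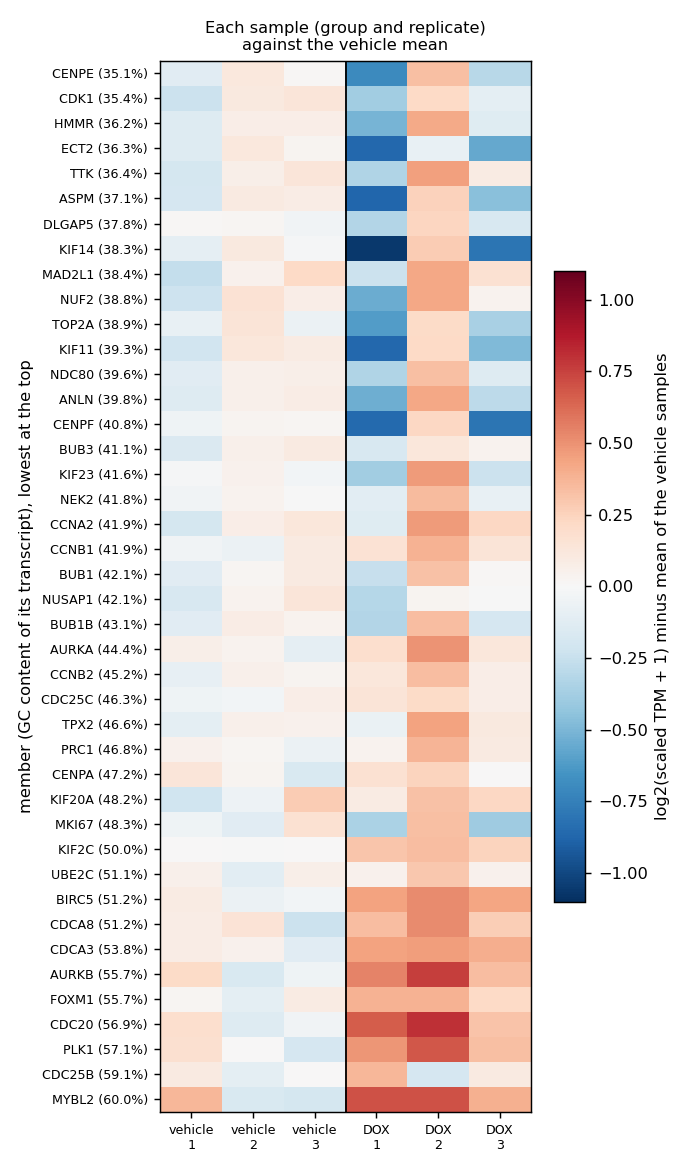
Each row is a member, ordered by the GC content of its transcript with the lowest at the top, and each column a sample. Colour gives log2(scaled TPM + 1) minus the mean of the vehicle samples. The column of DOX replicate 2 is above 0 for 40 of 42 members, while those of DOX replicates 1 and 3 turn from below to above 0 down the column.

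Values were also corrected for GC content and length in each sample by a spline over all genes. After this correction the log2 fold changes ran from -0.26 (ECT2) to 0.37 (MYBL2 and CDC20), with a median of 0.13 against 0.01 for all genes. Of the members 32 of 42 (76.2%) were above 0, against 52.8% of all genes. No member was called, and none passed an unadjusted p under 0.05 with the fold change (0 of each), while at an unadjusted p under 0.05 alone 12 were higher and 1 lower, against 665 and 657 of 10788 genes. CDC20 was then at 0.37, AURKB at 0.32, PLK1 at 0.30 and BIRC5 at 0.36, and KIF14 moved to -0.25, CENPF to -0.21 and KIF11 to -0.17. Of the other genes in the role of CDC20, MAD2L1 was at 0.35, TTK at 0.28, BUB3 at 0.22 and BUB1 at 0.14. BUB1B was at 0.03 and UBE2C at -0.03. DOX replicate 2 was still the highest sample for 37 of 42 members, against 24.1% of all genes. The median member then lay 0.06, 0.36 and 0.03 above the vehicle mean in DOX replicates 1, 2 and 3. How far GC content or length shapes the changes of single members was not tested.

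**Figure D5:**
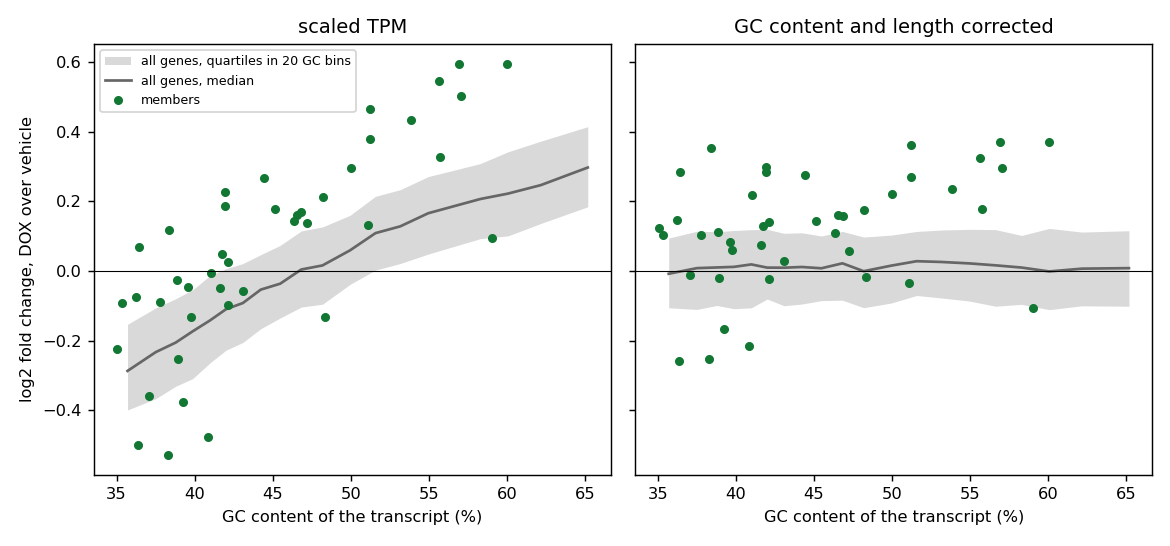
Log2 fold change, DOX over vehicle, against the GC content of the transcript before (left) and after (right) correction for GC content and length. Points are the 42 members, the line and band are the median and quartiles of all genes in 20 bins, and the slope of the line at left is absent at right, where the members have a median of 0.13.

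Members with and without a CHR overlapped in their changes. The 27 members with a CHR in a window had a median log2 fold change of -0.05, with 11 above 0, and the 8 without one (AURKB, CCNA2, CCNB1, CENPE, KIF20A, KIF2C, MYBL2 and NEK2) a median of 0.22, with 7 above 0. Only TTTGAA and TTCGAA were searched, so a member counted without a CHR may hold another form of it. Among the printed members, CDC20 at 0.60 and KIF11 at -0.38 both had a CHR and a CCAAT box, while KIF20A at 0.21 had CCAAT boxes only. After correction for GC content and length, the medians were 0.08 with and 0.25 without a CHR.

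Other genes of the cell cycle were described in the same way, and their differences from the members were not tested. Of 92 further G2/M genes, 91 were found and tested, and their median log2 fold change was 0.09 (56 above 0, 0 called, and at an unadjusted p under 0.05 11 higher and 0 lower, which is 12.1% and 0% against 8.12% and 7.75% of all genes). With the fold change 1 was higher and 0 lower. That gene was PKMYT1, the kinase that holds CDK1 inactive, with 2.43, 1.82 and 1.39 scaled TPM with vehicle and 3.56, 3.76 and 2.99 with DOX (log2 fold change 0.63, adjusted p of 0.268 from limma). All DOX samples exceeded all vehicle samples for 14 of the 91 (15.4%) and lay below them for 0, against 10.9% and 9.15% of all genes. For the 42 members the share above was 31.0%. DOX replicate 2 was the highest sample for 57 of the 91 (62.6%). For 42 S phase genes, the median was 0.17, with 37 above 0 (88.1%), 0 called and 1 past the unadjusted limits, and DOX replicate 2 was highest for 28 (66.7%). After correction for GC content and length, DOX replicate 2 was highest for 68 of the 91 (74.7%) and for 36 S phase genes (85.7%). Then 68 of the 91 (74.7%) and 39 S phase genes (92.9%) were above 0.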

How the data were processed

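RNA-seq was run on total RNA isolated from 6 samples of DU-145/tet-XISTshRNA cells, 3 with vehicle and 3 with DOX, grouped and numbered by the sample labels. The labels do not say that replicates came from separate cultures beyond triplicate culture, so p-values measure the spread between these samples. The paper names Trizol and the sample records a column kit for RNA isolation.

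The authors prepared stranded mRNA libraries, aligned reads with STAR (version not given in the sources used here) to GRCh38 and deposited TPM per gene symbol, which sum to 1000000 in each sample. The authors also deposited a DESeq2 table of DOX against vehicle with log2 fold changes and p-values, which were not used. Of it only the mean normalized count over all samples was read, a signal that the authors pooled.

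TPM was divided by median-of-ratios size factors, and log2(scaled TPM + 1) was fitted with limma (3.58.1, R 4.3.3) with a variance trend for genes with a mean of at least 1. p-values were adjusted over all 11595 genes by Benjamini-Hochberg, with calls at an adjusted p under 0.05 and over 1.5-fold. This log scale understates changes of low genes. Reads were recovered from TPM and the pooled signal, and 89.2% to 99.8% of low values per sample came out within 0.05 of whole reads (10% by chance). GC content and length came from GENCODE 44, matched for 87.2% of symbols and all 42 members, and the authors' annotation can differ. Python 3.11.15, pandas 2.3.3 and matplotlib 3.10.9 were used. The limma and voom fits without the block and the recovery of reads were tested on simulated data. The fits with the block and the correction for GC content and length were not.

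The members and lists were chosen with earlier results of these data known. All 42 members are named, with values per sample for those past the limits, called by voom with the block or without overlap, and for the 2 most abundant of each role. Deviations of same-numbered samples correlated across genes (r of 0.56, 0.26 and 0.19 for numbers 1, 2 and 3), so the number was fitted as a block in an alternative. On values corrected for GC content and length, these r were lower, at 0.14, 0.02 and 0.14. With the block on corrected values, 0 members were called. What a replicate number marks is not stated in the labels. Some marker genes are not reported here.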

Additional observations from a re-analysis of the deposited data

How the results depend on the processing

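Beyond those given in the report, no call of a member changed with the replicate block. With a pseudocount of 0.1, without the filter on low values and with the block on scaled TPM, 0 members were called and 2 passed the unadjusted limits, as in the report, while 545 genes passed them with the pseudocount (270 in the report) and 2 other G2/M genes. On TPM as deposited, 3 genes were called higher and 348 lower (15 and 2217 with the block), 2229 passed the unadjusted limits (2232), 7 members did in both fits and 7 were called lower with the block, and 13 other G2/M genes passed. Only 2 members did not overlap there, both lower with DOX, where 30.7% of all genes were wholly lower. The medians were -0.34 for the members and -0.31 for the other G2/M genes, against -0.35 for all genes. The values turned negative for CCNA2 (-0.24), CCNB1 (-0.21), CCNB2 (-0.26), CDC25B (-0.33), CDC25C (-0.21), AURKA (-0.17), NEK2 (-0.35), BUB1 (-0.41), TTK (-0.35), MAD2L1 (-0.31), UBE2C (-0.30), CENPA (-0.28), CDCA8 (-0.033), KIF20A (-0.22), KIF2C (-0.10), TPX2 (-0.28), PRC1 (-0.26) and FOXM1 (-0.11), the same with the block. By construction this scale carries the shift of all genes. voom on recovered reads called 0 genes higher and 1 lower and passed 642, and with the block called 170 and 248, passed 588 and called 3 members higher. It passed 2 other G2/M genes in both. After correction for GC content and length 68 genes passed (81 with the block), and 0 members and 0 other G2/M genes, with signs turned for CDK1 (0.10), CDC25B (-0.11), BUB1B (0.028), BUB3 (0.22), UBE2C (-0.034), CENPE (0.12), NDC80 (0.084), NUF2 (0.11), KIF23 (0.073), HMMR (0.14), DLGAP5 (0.10) and ANLN (0.060), the same with the block. With each sample left out in turn, 0 to 13 genes were called higher and 0 to 1 lower. The 13 genes called higher came without vehicle replicate 1. In the same fits 187 to 652 genes, 0 to 5 members and 0 to 4 other G2/M genes passed the unadjusted limits. Between 13 and 28 members did not overlap. Without DOX replicate 2, 14 members lay wholly above and 14 wholly below, where 20.5% and 21.6% of all genes did so. With all 6 samples these shares of all genes were 10.9% and 9.15%, so fewer samples raise this count in general. The ranges over the fits with a sample left out, for members that changed sign, were ANLN -0.41 to 0.070, BUB1 -0.12 to 0.17, BUB1B -0.26 to 0.076, BUB3 -0.084 to 0.080, CDC25B -0.039 to 0.23, CDK1 -0.25 to 0.055, CENPE -0.50 to 0.012, DLGAP5 -0.25 to 0.027, HMMR -0.32 to 0.14, KIF23 -0.31 to 0.12, MAD2L1 -0.035 to 0.30, NDC80 -0.23 to 0.095, NEK2 -0.099 to 0.13, NUF2 -0.25 to 0.23, NUSAP1 -0.19 to 0.011 and TTK -0.12 to 0.27. The cause was not tested. Of the 42 members, 13 kept their sign in all 15 alternatives (6 higher and 7 lower). Precision of low genes is limited by vehicle replicate 3, with 5453163 reads.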
